A study of Rattus norvegicus with 12 samples.

Results

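The synaptic vesicle release machinery genes are the rat genes whose products load, dock, prime and fuse synaptic vesicles, together with the relatives that share their family names. They were chosen by gene symbol: the synaptotagmins (Syt), syntaxins (Stx), syntaxin-binding proteins (Stxbp), synapsins (Syn), SNAP proteins (Snap, Napa, Napb), VAMPs, complexins (Cplx), the SV2, Rab3, synaptogyrin, Unc13 and Rims families, and Syp and Synpr. On the Affymetrix Rat Genome 230 2.0 array 103 probe sets carried such a symbol, which gave 69 of the 14217 genes with 1 symbol in the table. Each gene was represented by its probe set with the highest mean signal over the 12 arrays; 42 genes had 1 probe set and 27 had several. Of the 69 genes, 61 had a representative above the limit for dim probe sets (a mean signal of 17.4), and 8 did not. The rule used names alone and no measured difference, but it was chosen with earlier results of these data known.

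Male Wistar rats took cocaine by nose poke (0.3 mg/kg per injection, intravenous) in 4 daily sessions of 2 h, and RNA was taken from their nucleus accumbens and anterior cingulate cortex. The rats were killed 2 h after the last session. Both structures were taken from rats treated with vehicle and from rats given TsA, with 3 arrays in each of the 4 groups and RNA of 2 rats pooled on each array. TsA usually stands for trichostatin A, which inhibits histone deacetylases, but the labels do not spell it out and give neither a dose nor a route. All groups had taken cocaine, so no cocaine-free level exists for any gene below, and a pool gives no value for a single rat. Whether pools of both structures share animals is not given in the labels. No separate cultures or litters are named, so p-values measure the spread between these pools and arrays.

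Neurotransmitter is released when a vesicle SNARE, such as VAMP2, zips together with the plasma membrane SNAREs syntaxin 1 and SNAP-25 and pulls the vesicle onto the cell membrane. Synaptotagmins sense the calcium that triggers this step, complexins hold the assembled SNAREs ready, and Rab3, RIM and Munc13 proteins dock and prime vesicles at the active zone. Synapsins tether the reserve vesicles, and NSF with its SNAP adaptors takes used SNARE complexes apart. Many syntaxins, VAMPs and synaptotagmins work elsewhere, in endosomes, the Golgi or the surface membrane of cells of all types. The cingulate cortex is built mainly of glutamatergic pyramidal neurons and the accumbens mainly of GABAergic medium spiny neurons, which receive dense glutamatergic and dopaminergic input. Most neuronal mRNA lies in cell bodies and not in axons that arrive from elsewhere.

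The measured unit is the MAS5 signal, a linear brightness per probe set, and log2 differences are of log2(signal + 16). The structures kept to their labels. All 8 cingulate cortex markers were lower in the accumbens (median log2 difference -2.27) and all 9 accumbens markers were higher (3.38). Markers of other cell types differed too. All 10 oligodendrocyte markers were higher in the accumbens, with a summed signal of 6846 to 8420 in the cortex and 16420 to 20500 in the accumbens. Of 11 general neuron markers, 7 were lower and 0 higher in the accumbens (summed signal 14347 to 15073 in the cortex and 10536 to 11630 in the accumbens, ranges that do not overlap). Of 8 astrocyte markers, 3 were lower (Gjb6 at -1.12, Gfap at -0.48 and Aldh1l1 at -0.48), 1 was higher (Gja1 at 0.20) and 4 did not pass. Their summed signal was 11412 to 12697 in the cortex and 11145 to 12166 in the accumbens, ranges that overlap. Of 6 markers of GABA neurons, 3 were higher and 2 lower, among them Slc32a1 at 1.84 and Vip at -3.03. The microglia and endothelium markers gave 0 of 8 and 0 of 4 past the threshold. Of 6 markers of neighbouring regions, 4 were higher and 2 lower. In tissue RNA, fewer cells of a type and less RNA per cell cannot be told apart. How far these marker shifts enter the differences below was not tested. Washing took place in 3 batches of 4 arrays. Batch 1 was made up of the arrays of vehicle-treated cortex and of cortex TsA array 1. In batch 2 were the other cortex TsA arrays and accumbens vehicle arrays 1 and 2, and in batch 3 the remaining accumbens arrays. Only batch 2 held both structures, so structure and wash batch largely coincide.

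The first comparison asks how the release machinery differs between the structures, averaged over treatments. Most of the neuronal release genes were lower in the accumbens than in the cingulate cortex. The largest drops were those of the plasma membrane SNARE gene Stx1a, 6.83-fold between the mean signals, and of the synaptotagmin gene Syt17, 5.79-fold. The synapsins Syn1 and Syn2, the calcium sensor Syt1, the vesicle protein Syp and the clathrin adaptor Snap91 were lower by 1.80-fold to 2.17-fold. A smaller set was higher in the accumbens, led by the priming factor gene Unc13c and by Stxbp3, Syngr2, Syt6 and Synpr. Of the 61 genes above the dim limit, 42 (68.9%) passed an adjusted p of 0.05 in limma, against 44.8% of all 18625 probe sets tested. Lower in the accumbens were 28 genes (45.9%), against 20.4% of all probe sets, and higher were 14 (23.0%), against 24.4%. The median log2 difference was -0.17 over the 61 genes and 0.036 over all probe sets. The cortex and accumbens arrays did not overlap for 32 of the 61 genes (52.5%), against 27.1% of all probe sets. Of these, 22 were lower and 10 higher, against 12.7% and 14.4% of all probe sets.

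**Figure D1:**
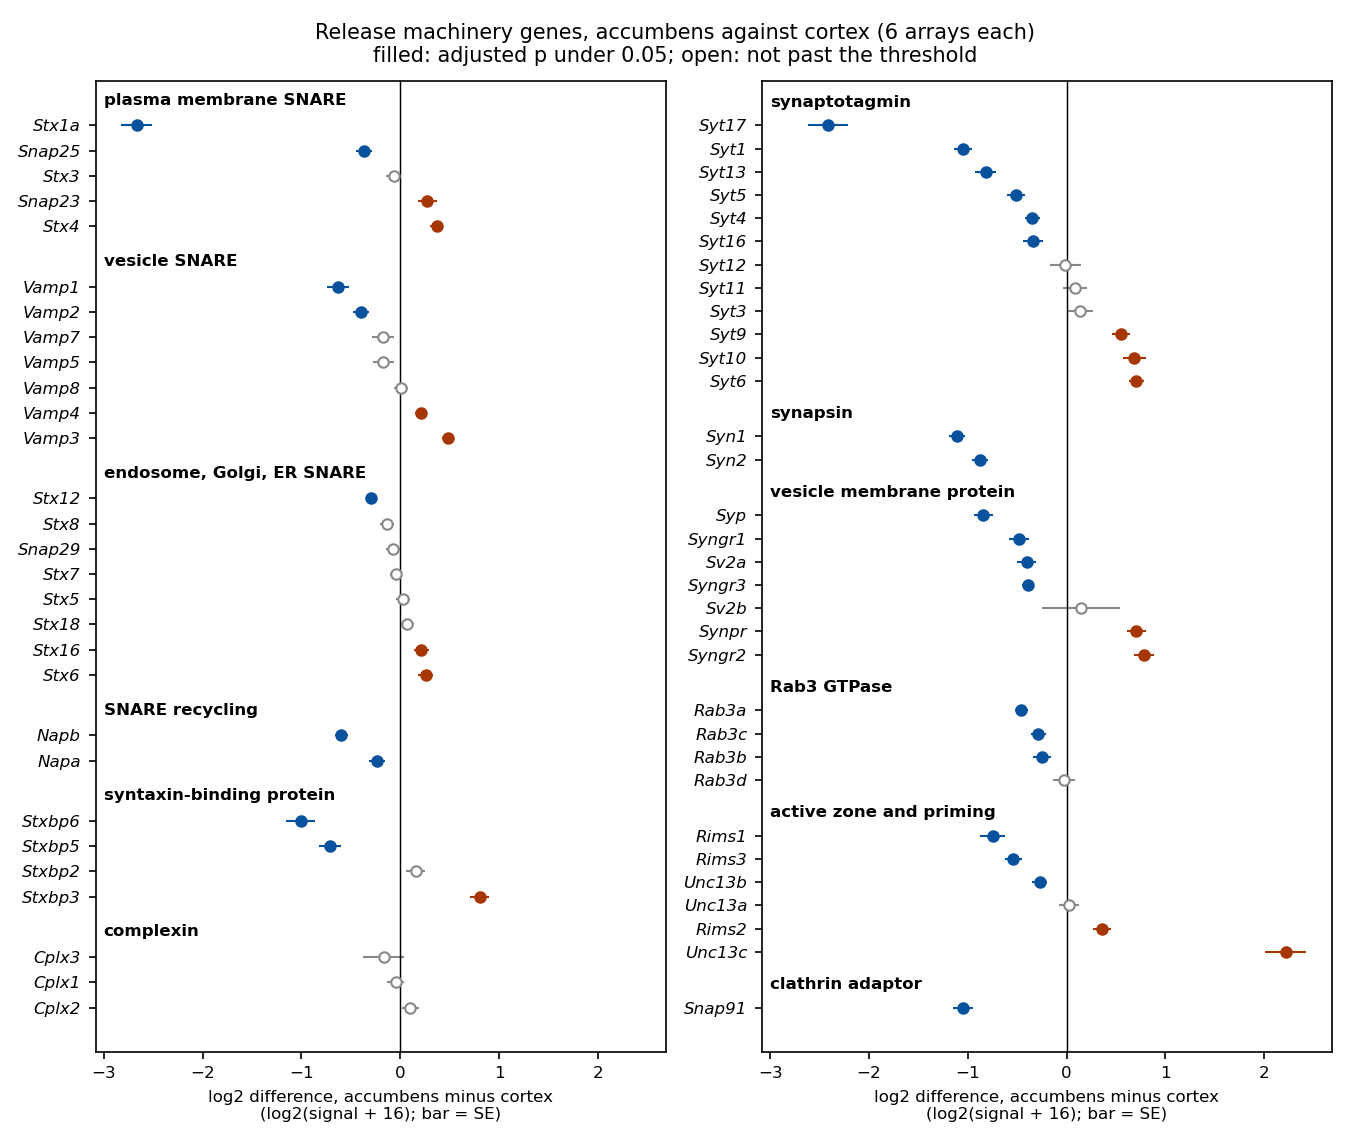
Log2 difference (accumbens minus cingulate cortex, on the log2(signal + 16) scale; bars are SE of the limma fit, 6 arrays per structure) of the 61 release machinery genes above the dim limit, sorted by role. Filled points passed the adjusted p of 0.05 (28 lower in blue, 14 higher in orange) and open points did not; Stx1a and Syt17 lie far to the left and Unc13c far to the right.

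Stx1a encodes syntaxin 1A, the neuronal plasma membrane syntaxin. In the cortex its signal was 817, 1158 and 1001 on the vehicle arrays and 803, 982 and 1013 on the TsA arrays. In the accumbens it was 120, 88.2 and 184 with vehicle and 175, 115 and 164 with TsA. Every cortex array was far brighter than every accumbens array, with no overlap. The means were 962 ± 134 and 141 ± 38.6 (SD, n = 6 each), a 6.83-fold ratio and a log2 difference of -2.67 ± 0.15 (SE, adjusted p = 1.75e-08). A second Stx1a probe set gave -2.53. The difference was -3.37 with wash batch as a block.

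The other plasma membrane SNAREs moved much less and in both directions. Snap25, the partner of syntaxin 1, had signals of 3543 to 4055 in the cortex (median 3704) and 2392 to 3387 in the accumbens (median 3034). Its arrays did not overlap, and the log2 difference was -0.37 ± 0.08 (adjusted p = 0.00158). This became -0.13, at an adjusted p of 0.487, once wash batch entered the fit as a block. Stx4 and Snap23, which serve surface fusion in many non-neuronal cells, were higher in the accumbens, by 0.37 ± 0.07 and 0.27 ± 0.10. Stx4 was at 112 to 131 in the cortex and 149 to 178 in the accumbens, without overlap, while the Snap23 ranges of 43.0 to 69.2 and 67.1 to 87.4 overlapped slightly. Neither kept its call with wash batch as a block, where Stx4 stood at 0.14 and Snap23 at 0.47 (adjusted p = 0.491 and 0.144). Stx3 did not pass (-0.06).

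The vesicle SNAREs held genes of both directions. Vamp1 and Vamp2, the VAMPs of synaptic vesicles, were lower in the accumbens. Vamp2 had signals of 1297 to 1642 in the cortex (median 1451) and 992 to 1247 in the accumbens (median 1071), without overlap, a log2 difference of -0.40 ± 0.08 (-0.70 with wash batch as a block). Vamp1 had signals of 429 to 609 against 269 to 407, a difference of -0.63 ± 0.11. Vamp3, the cellubrevin of recycling endosomes in most cell types, was higher in the accumbens. Its signal was 256, 258 and 266 on the cortex vehicle arrays and 227, 244 and 222 on the cortex TsA arrays, against 344, 345 and 397 and then 318, 352 and 340 in the accumbens. All accumbens arrays stood above all cortex arrays, and the log2 difference was 0.48 ± 0.06 (adjusted p = 3.43e-05, and 0.0999 with wash batch as a block). Vamp4, a SNARE of the Golgi and endosomes, was higher by 0.21 ± 0.06, but its second probe set gave -0.15 and did not pass. Vamp5, Vamp7 and Vamp8 did not pass (-0.17, -0.17 and 0.01).

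Among the syntaxins and SNAPs of endosomes, the Golgi and the endoplasmic reticulum, 3 of 8 passed (37.5%, against 44.8% of all probe sets). Stx6 and Stx16, both of the trans-Golgi network, were higher by 0.26 and 0.22, and the endosomal Stx12 was lower by 0.29 on the log2 scale (-0.29 ± 0.06). With wash batch in the fit as a block none of the 3 passed (adjusted p = 0.283 for Stx6, 0.302 for Stx16 and 0.155 for Stx12). Second probe sets gave 0.08 for Stx6 and 0.09 for Stx12, and neither passed. The other 5 genes (Stx5, Stx7, Stx8, Stx18 and Snap29) lay between -0.13 and 0.07, with Stx5 at 0.03 and its second probe set at 0.09.

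Synaptotagmins are the most varied family of the machinery. Of the 12 above the dim limit, 6 were lower in the accumbens, 3 were higher and 3 did not pass. Syt17, a synaptotagmin relative, had signals of 463, 704 and 633 with vehicle and 486, 651 and 528 with TsA in the cortex. In the accumbens they were 69.8, 55.1 and 175 with vehicle and 117, 89.2 and 92.8 with TsA. The lowest cortex array stood well above the highest accumbens array, accumbens vehicle array 3, and the log2 difference was -2.42 ± 0.20 (5.79-fold between the means, adjusted p = 5.58e-07). A second Syt17 probe set gave -2.33. Syt1, the main fast calcium sensor of forebrain synapses, had signals of 659 to 813 in the cortex (median 675) and 258 to 370 in the accumbens (median 354). The ranges did not overlap, and the difference was -1.05 ± 0.09 (2.11-fold, adjusted p = 6.48e-07). Syt13 (-0.82), Syt5 (-0.51), Syt4 (-0.35) and Syt16 (-0.34) were lower too. With wash batch as a block Syt4 fell back to -0.07 (adjusted p = 0.770) and Syt16 stood at -0.40 (adjusted p = 0.257).

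The 3 synaptotagmins higher in the accumbens, Syt6, Syt10 and Syt9, all had low signals. Syt6 had cortex signals of 19.5, 17.9 and 14.4 with vehicle and 16.7, 16.5 and 16 with TsA, against 31.3, 39.6 and 29.0 and then 46.7, 41.1 and 39.0 in the accumbens. Its arrays did not overlap, with a log2 difference of 0.71 ± 0.08 (2.25-fold between the means). Syt9, which like Syt1 is a fast calcium sensor, had 16.5 to 28.1 in the cortex (median 20.0) and 32 to 43.9 in the accumbens (median 36.1), again without overlap, and a difference of 0.55 ± 0.09. Syt10, a calcium sensor known from the mouse olfactory bulb, had 6.49 to 16.6 (median 8.94) against 18.5 to 33.1 (median 24.0), without overlap, and a difference of 0.68 ± 0.12. The Syt9 call was lost with the block (0.51, adjusted p = 0.0953). Syt3, Syt11 and Syt12 did not pass.

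Both synapsins above the limit, which coat the vesicle reserve, were lower in the accumbens. Syn1 had cortex signals of 1534, 1823 and 1981 with vehicle and 1767, 1975 and 1767 with TsA. In the accumbens the signals were 714, 846 and 906 with vehicle and 828, 763 and 937 with TsA. No accumbens array reached the lowest cortex array, and the log2 difference was -1.11 ± 0.08 (2.17-fold, adjusted p = 1.84e-07), with -1.24 at a second probe set. Syn2 had 697 to 875 in the cortex (median 750.3) and 357 to 491 in the accumbens (median 399), a difference of -0.88 ± 0.08 without overlap. Its other probe sets gave -0.90 and -0.79.

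The membrane proteins of the vesicle gave 4 lower, 2 higher and 1 not past. Syp, synaptophysin, the most common marker of synaptic vesicles, had 1212 to 1522 in the cortex (median 1396) and 618 to 871 in the accumbens (median 751). The ranges did not overlap, and the difference was -0.84 ± 0.09 (1.80-fold, adjusted p = 6.71e-06). Its relative Synpr, synaptoporin, went the other way, with 821 to 1022 in the cortex (median 935) and 1197 to 1779 in the accumbens (median 1539), a difference of 0.70 ± 0.10 and 0.87 at a second probe set (1.08 with wash batch as a block). The synaptogyrins also divided. The neuronal Syngr1 and Syngr3 were lower (-0.48 and -0.39), and Syngr2, found mostly outside neurons, was higher, with 46.8 to 58.6 in the cortex and 76.9 to 126 in the accumbens (0.79 ± 0.10, second probe set 0.47). With wash batch as a block Syngr2 stood at 0.48 (adjusted p = 0.087) and Syngr1 at -0.79. Sv2a, the SV2 protein that binds levetiracetam, was lower by 0.40 on the log2 scale (-0.40 ± 0.10), and by more with the block (-0.83).

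**Figure D2:**
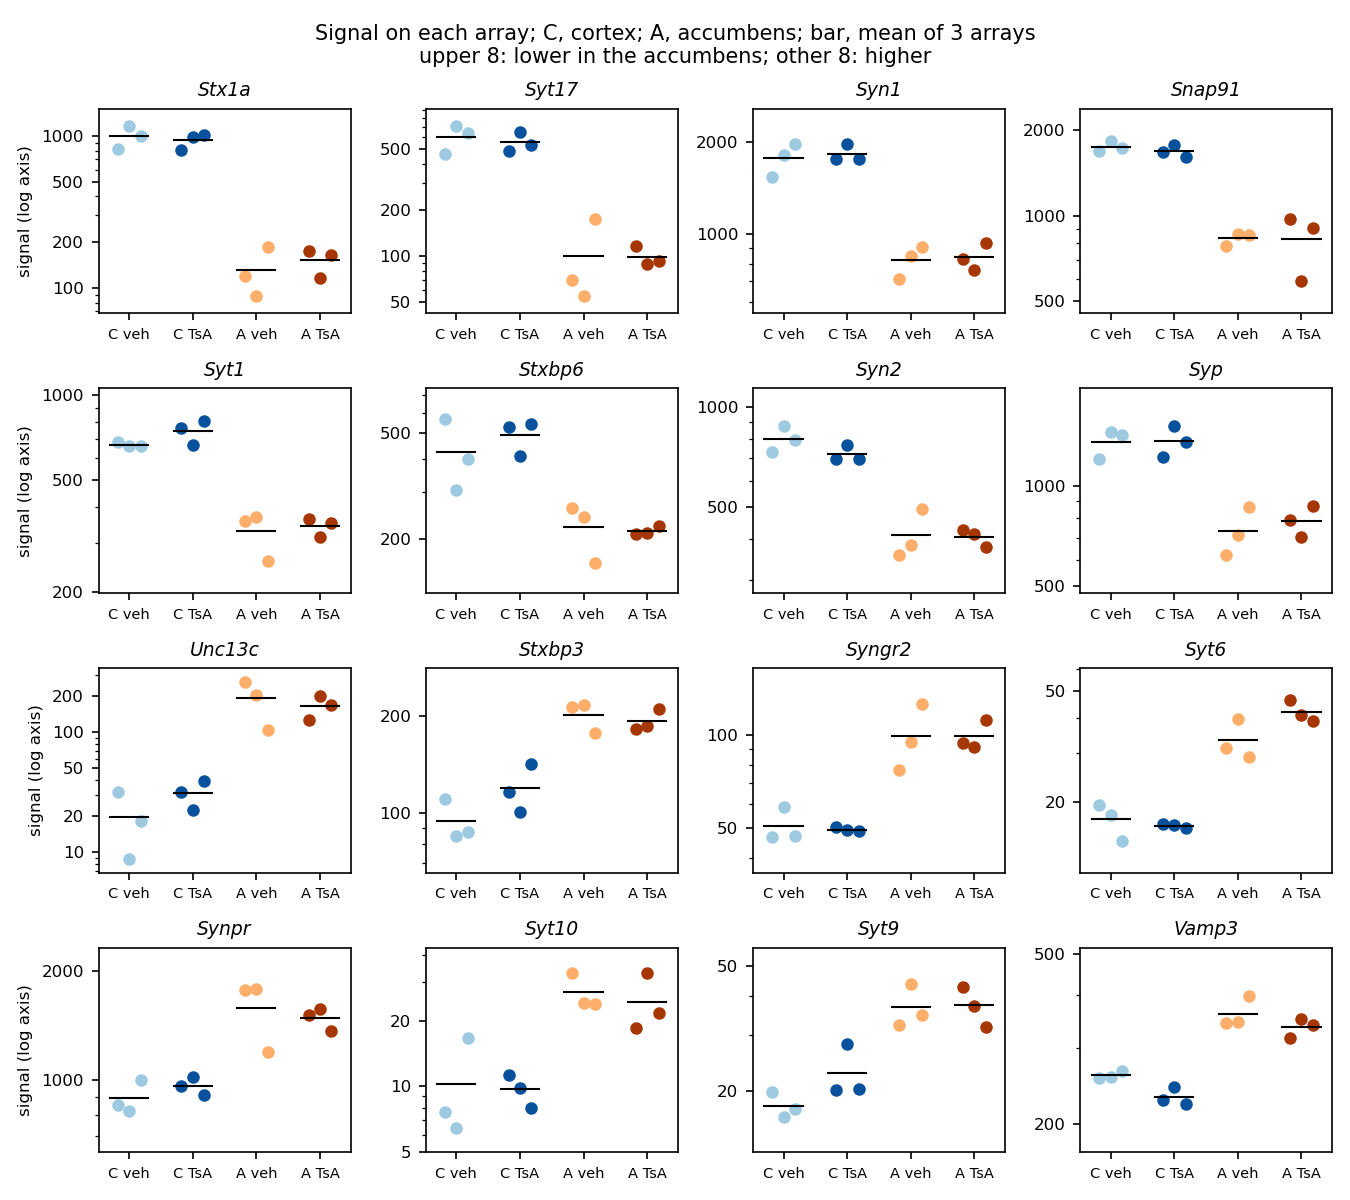
MAS5 signal (log axis) on each of the 12 arrays for the 8 genes with the largest drop in the accumbens and the 8 with the largest rise among those past the threshold; points are arrays, bars the mean of 3. C is cingulate cortex and A accumbens, with vehicle and TsA beside each other; for these 16 genes the cortex and accumbens points do not overlap, as in Syn1 at 1534 to 1981 in the cortex and 714 to 937 in the accumbens.

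Sv2b, a close relative of Sv2a, gave different answers at its probe sets. At the brightest one, which represents it here, the signal was 439, 201 and 203 on the cortex vehicle arrays and 275, 1284 and 522 on the cortex TsA arrays. On the accumbens arrays it was 453, 275 and 285 with vehicle and 297, 1388 and 435 with TsA. The structures overlapped entirely, and the difference was 0.15 ± 0.39 (adjusted p = 0.787). TsA array 2 stood far above all other arrays in both structures, and arrays of the same treatment and number had like signals in cortex and accumbens. At the second probe set the cortex signal was 778, 724 and 744 with vehicle and 739, 734 and 829 with TsA. The accumbens signal there was 195, 181 and 177 with vehicle and 182, 167 and 173 with TsA. There the structures were far apart, at -1.99 ± 0.06 (adjusted p = 5.38e-11), and TsA array 2 did not stand out. The mean over all arrays was 505 at the brightest probe set and 469 at the second. Without TsA array 2 of both structures the second would be the brighter. The count of Sv2b as not past the threshold therefore hangs on those arrays. Averaging the probe sets of the gene gave -0.92 ± 0.20. What the brightest probe set follows was not tested.

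**Figure D3:**
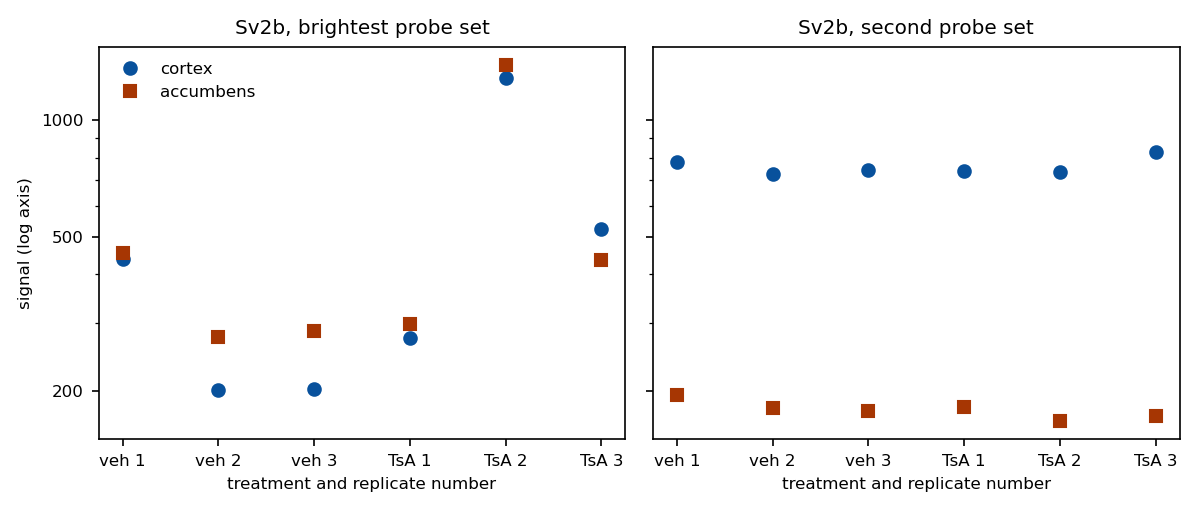
Signal (log axis) of the 2 Sv2b probe sets above the dim limit on each array, by treatment and replicate number, with cortex as circles and accumbens as squares. At the brightest probe set both structures peak at TsA array 2 (1284 and 1388), while at the second the cortex lies at 724 to 829 and the accumbens at 167 to 195 on every array.

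Rab3 proteins are the GTPases that carry vesicles to the active zone. Rab3a, the main neuronal form, had 1635 to 2105 in the cortex (median 1852) and 1289 to 1486 in the accumbens (median 1317), without overlap and with a difference of -0.46 ± 0.07 (second probe set -0.71). Rab3c and Rab3b were lower by less (-0.29 and -0.25) with overlapping arrays, and Rab3d did not pass (-0.03). With wash batch as a block Rab3c stood at -0.21 and Rab3b at -0.42, and neither passed (adjusted p = 0.427 and 0.0846).

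At the active zone the Munc13 and RIM families each held genes of both directions. Unc13c, the Munc13 isoform best known from the cerebellum, had the largest rise of all. In the cortex its signal was 31.9, 8.80 and 18.1 with vehicle and 32, 22.5 and 39.2 with TsA. In the accumbens it was 261, 205 and 104 with vehicle and 127, 200 and 167 with TsA. The lowest accumbens array was well above the highest cortex array, and the log2 difference was 2.22 ± 0.21 (6.98-fold between the means, adjusted p = 1.56e-06). Its paralogs Unc13a, the main priming factor of forebrain synapses, and Unc13b lay at 0.02 and -0.27, of which the latter passed (adjusted p = 0.0135, and 0.419 with wash batch as a block). Both were only slightly above the dim limit, with mean signals of 21.1 for Unc13a (15.5 to 31.4 over all arrays) and 18.8 for Unc13b. At such signals the added 16 makes log2 differences smaller, so the Unc13a value does not show an equal level in both structures. Rims1, the scaffold that links Rab3 to calcium channels and Munc13, had 152 to 226 in the cortex and 85.9 to 146 in the accumbens, a difference of -0.75 ± 0.13 (adjusted p = 0.0635 with the block). Rims3 was lower by 0.54 on the log2 scale (-0.54 ± 0.09) and Rims2 was higher by 0.36 ± 0.09, and by 0.59 with the block.

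The proteins that bind syntaxin or handle the SNARE complex also divided. Stxbp6 (amisyn) and Stxbp5 (tomosyn), which both form SNARE complexes that cannot fuse, were lower. Stxbp6 had 306 to 569 in the cortex (median 469) and 162 to 262 in the accumbens (median 217), without overlap, at -1.01 ± 0.14, and Stxbp5 was at -0.71 ± 0.11. Both calls were lost with wash batch as a block, at -0.51 (adjusted p = 0.221) and -0.63 (adjusted p = 0.113). Stxbp3 (Munc18c), the partner of syntaxin 4, was higher, with 84.9 to 142 in the cortex (median 106) and 176 to 216 in the accumbens (median 197), without overlap, at 0.80 ± 0.10 (adjusted p = 1.36e-05). Napb and Napa, the beta and alpha SNAP adaptors of NSF, were at -0.60 ± 0.07 and -0.23 ± 0.08, and Napa did not pass with the block (-0.46, adjusted p = 0.0752). Snap91 (AP180), which builds the clathrin coat that retrieves vesicles, had 1610 to 1824 in the cortex (median 1706) and 590 to 977 in the accumbens (median 857). Its arrays did not overlap, and the difference was -1.05 ± 0.10 (2.07-fold, adjusted p = 1.95e-06).

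The complexins, which clamp and prime the assembled SNAREs, were the family with no call. Cplx1 had 1579 to 2006 in the cortex and 1321 to 1932 in the accumbens (-0.05 ± 0.09, second probe set -0.15), and Cplx2 had 138 to 188 and 138 to 187 (0.10 ± 0.09). Cplx3 was at -0.17 ± 0.21. The arrays of both structures overlapped for all 3 genes.

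Promoter sequences were looked at beside these differences. RefSeq windows of 300 bases (250 before and 50 after the annotated start, GRCr8) were matched for 55 of the 69 genes; those of Vamp3, Rims2, Syt5, Syt13, Syngr3, Snap91, Vamp7, Syn3, Syt12, Syt10, Syt17, Syt7, Syngr1 and Snap25 were not used here. The windows of the gene that fell most, Stx1a, and of the gene that rose most, Unc13c, are shown, and those of Syn1, Syp and Syt1 as examples of the windows of lower genes that hold the EGR motif GCGGGGGCG. Matches to it on either strand are in capitals. Syn1, Syp and Syt1 were picked for holding a match, and 15 of the 21 windows of lower genes hold none. The coordinates are chr12:27306422-27306721 on the minus strand for Stx1a, chrX:3725495-3725794 on the plus strand for Syn1, chrX:17536400-17536699 on the minus strand for Syp, chr7:46244164-46244463 on the minus strand for Syt1 and chr8:83553773-83554072 on the minus strand for Unc13c.
Stx1a: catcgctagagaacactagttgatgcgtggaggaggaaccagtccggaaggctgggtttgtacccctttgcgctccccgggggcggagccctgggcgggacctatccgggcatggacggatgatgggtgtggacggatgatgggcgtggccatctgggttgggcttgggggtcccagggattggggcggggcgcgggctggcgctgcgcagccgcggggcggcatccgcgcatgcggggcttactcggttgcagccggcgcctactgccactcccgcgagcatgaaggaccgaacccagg
Syn1: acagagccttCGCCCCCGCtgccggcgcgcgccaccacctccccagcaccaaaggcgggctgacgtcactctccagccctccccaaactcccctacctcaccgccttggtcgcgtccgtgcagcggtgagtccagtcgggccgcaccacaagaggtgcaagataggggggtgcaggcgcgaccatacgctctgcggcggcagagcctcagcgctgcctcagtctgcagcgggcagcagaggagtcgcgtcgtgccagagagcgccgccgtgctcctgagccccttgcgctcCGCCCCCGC
Syp: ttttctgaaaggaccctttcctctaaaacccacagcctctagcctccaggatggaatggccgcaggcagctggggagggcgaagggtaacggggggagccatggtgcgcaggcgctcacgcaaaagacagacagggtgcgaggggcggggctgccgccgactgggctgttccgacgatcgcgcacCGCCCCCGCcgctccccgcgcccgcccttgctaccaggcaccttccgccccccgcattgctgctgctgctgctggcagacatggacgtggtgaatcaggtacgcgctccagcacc
Syt1: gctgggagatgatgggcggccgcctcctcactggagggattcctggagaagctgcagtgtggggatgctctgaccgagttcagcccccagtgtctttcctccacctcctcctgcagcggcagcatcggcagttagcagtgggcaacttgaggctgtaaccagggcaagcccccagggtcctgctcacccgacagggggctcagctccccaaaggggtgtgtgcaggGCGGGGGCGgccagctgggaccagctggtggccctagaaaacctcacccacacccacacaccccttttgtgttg
Unc13c: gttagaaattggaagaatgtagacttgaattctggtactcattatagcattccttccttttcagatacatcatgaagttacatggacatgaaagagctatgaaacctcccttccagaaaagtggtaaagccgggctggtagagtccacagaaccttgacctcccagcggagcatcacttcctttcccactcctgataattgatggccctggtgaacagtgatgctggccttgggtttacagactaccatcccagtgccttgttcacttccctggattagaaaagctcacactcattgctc

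Counted in bases from the annotated start, Syn1 held 2 matches, beginning at -240 and 41, Syp held 1 at -65 and Syt1 held 1 at -24, while the Stx1a and Unc13c windows held none. The motif was found in 6 of the 21 windows of genes lower in the accumbens (28.6%; Syn1, Syn2, Syp, Syt1, Stxbp5 and Vamp2), in 1 of 11 of those higher (Vamp4), in 2 of 17 of those not past the threshold (Cplx1 and Rab3d) and in 4.90% of the windows of all 11700 genes. These letters can overlap a GC box (GGGCGG), as they do in Syn1, Syp and Syt1. A GC box was present in 70.9% of the 55 windows and 57.5% of all. The full CRE, TGACGTCA, was in 3 of the 55 (Syn1, Vamp1 and Napa, all lower) and in 2.85% of all windows, and its first 5 letters, TGACG, in 30.9% and 29.2%. A match describes letters in the window and not a bound site. The base composition differs too, with a median GC content of 63% in the 55 windows, 64.3% in the 21 of lower genes and 60% in all.

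The genes were also counted by where they work. Of 26 core neuronal release genes above the limit, 17 were lower (65.4%), 4 higher (15.4%) and 5 not past, with a median of -0.38. Over all probe sets 20.4% were lower and 24.4% higher. Of 19 genes of general membrane trafficking, 2 were lower (10.5%), 7 higher (36.8%) and 10 not past, with a median of 0.027, so that 47.4% passed against 44.8% of all probe sets. The remaining 16, mostly minor synaptotagmins and regulators, had 9 lower (56.2%), 3 higher (18.8%) and 4 not past (median -0.34). Other release genes outside these families were counted for comparison, such as the transmitter transporters of vesicles and proteins of endocytosis. Of 55 above the limit, 34 were lower (61.8%), 5 higher (9.09%) and 16 not past, with a median of -0.32. Lowest among them were Slc17a7, the vesicular glutamate transporter of cortical neurons (-2.44), Cadps2 (-1.55), Sh3gl2 (-1.53) and Rimbp2 (-1.25). Slc32a1, the vesicular GABA transporter, was the highest (1.84), followed by Ppfia4 (0.77), Doc2b (0.59) and Rab27b (0.41). The general neuron markers, with a median of -0.45, lay close to the core genes, and the oligodendrocyte markers at 1.81. The core, trafficking and other release lists were drawn up with earlier results of these data known. The counts therefore describe these lists and are no independent support for a split between them. The difference between these groups of genes was not tested.

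**Figure D4:**
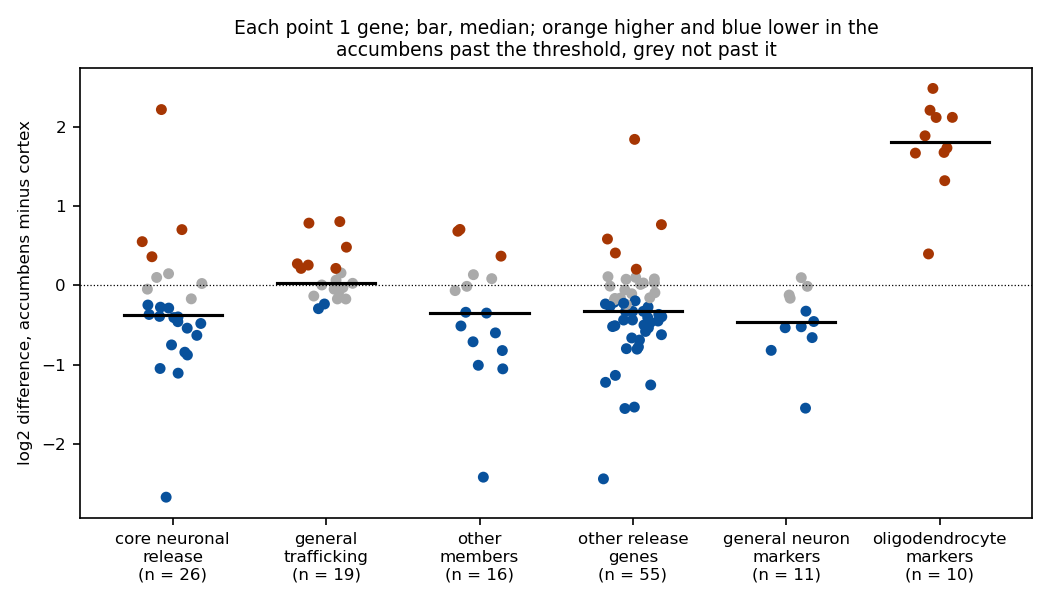
Log2 difference (accumbens minus cingulate cortex) of single genes, as points, in 3 groups of release machinery genes, in other release genes and in the general neuron and oligodendrocyte markers; bars are medians and colours the calls. The core genes (median -0.38) and the other release genes (-0.32) lie near the neuron markers (-0.45), the trafficking genes lie around 0 (0.027), and the oligodendrocyte markers lie above 0 (1.81).

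The 42 calls were then followed through the treatments and wash batches. In the vehicle arrays alone 29 of the 61 genes passed (8 higher and 21 lower, against 23.8% of all probe sets, 12.5% higher and 11.3% lower), in the TsA arrays alone 34 passed (11 higher and 23 lower, against 37.3%, 20.9% higher and 16.5% lower), and 28 passed in both with the same sign. All 42 had the same sign in vehicle arrays, in TsA arrays, with wash batch as a block and within batch 2. The calls were made on these same arrays, so like signs in parts of them are close to fixed in advance. They are no independent support, and neither are the calls kept below with an array left out. The share over all called probe sets is not given here. With the block 23 of the 61 genes passed, all of them among the 42 (6 higher and 17 lower, against 22.5% of all probe sets, 11.2% higher and 11.3% lower). Within batch 2 the cortex arrays are all TsA and the accumbens arrays all vehicle. There 26 of the 61 passed, all among the 42 (7 higher and 19 lower, against 22.7%, 11.9% higher and 10.8% lower). The 19 genes that lost the call with the block were Rab3b, Rab3c, Napa, Rims1, Unc13b, Stx4, Stx6, Stx12, Stx16, Snap23, Snap25, Syt4, Syt9, Syt16, Stxbp5, Stxbp6, Vamp3, Vamp4 and Syngr2. Of these, Rims1, Stxbp5, Stxbp6, Vamp3 and Syngr2 passed within batch 2. When arrays were centred on their medians, which moved the median of all probe sets by -0.059, 10 genes were higher and 29 lower, against 19.5% and 24.8% of all probe sets (44.2% in all), so the balance of directions over all probe sets turned while that of the release genes stayed toward lower. Each of 38 calls was kept whichever array was left out. The other 4 were near the threshold: Rab3b lost its call without any 1 of 9 arrays (adjusted p up to 0.0953), Snap23 of 7 (0.0820), Napa of 6 (0.0767) and Stx16 of 5 (0.0812).

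The 8 genes below the dim limit were Stx11, Stx17, Sv2c, Syn3, Syt2, Syt7, Syt8 and Syt15, with mean signals of 6.14 to 17.2. Without the filter 1 of them passed: Sv2c, the SV2 form of the basal ganglia, with 0.761 to 4.13 in the cortex and 12.6 to 28.1 in the accumbens, without overlap and with a log2 difference of 1.03. A gene that is dim in one structure can pass the filter only through the other. Syt6 and Syt10 had cortex means of 16.8 and 9.97, and Rims3 and Unc13b had accumbens means of 13.4 and 15.6, all below the limit. On the log2(signal + 16) scale such differences are smaller than the ratios of the means, as for Syt10 (0.68 on the log2 scale, 2.58-fold between the means).

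The second comparison asks whether TsA changed the release machinery in either structure. No release gene passed the threshold: limma called 0 of 61 in either structure, and likewise 0 when the structures were averaged or their TsA effects set against each other. The same counts over all 18625 probe sets were 0% in each. At an unadjusted p under 0.05 there were 2 release genes in the cortex (4.57% of all probe sets) and 1 in the accumbens (2.19%). The average gave 3 (2.77%) and the difference 3 (3.55%). The median log2 difference over the 61 genes was -0.013 in the cortex and 0.017 in the accumbens, and the median size was 0.087 and 0.063. For the 16 genes that differed most between the structures, TsA minus vehicle ran from -0.16 (Vamp3) to 0.45 ± 0.29 (Unc13c) in the cortex and from -0.13 (Unc13c) to 0.24 ± 0.11 (Syt6) in the accumbens. Stx1a stood at -0.08 ± 0.22 in the cortex and 0.22 ± 0.22 in the accumbens, and Syn1 at 0.05 ± 0.12 and 0.04 ± 0.12.

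Vehicle and TsA arrays of the cortex did not overlap for 7 of 61 genes (11.5%), against 12.4% of all probe sets, and those of the accumbens for 0 of 61, against 5.48%. Vamp8, a SNARE of endosomes and secretory granules in non-neuronal cells, had cortex signals of 101, 112 and 96.0 with vehicle and 79.0, 73.4 and 80.7 with TsA. All TsA arrays were below all vehicle arrays, at -0.34 ± 0.10 (unadjusted p = 0.00587, adjusted p = 0.751). In the accumbens Vamp8 was at 81.7, 84.6 and 102 with vehicle and 87.3, 88.6 and 95.8 with TsA, and these overlapped. Vamp5, a VAMP of muscle and endothelium, had 40.8, 50.4 and 41.1 against 29.8, 29.2 and 39.1 in the cortex (-0.31). Vamp3 and Rab3c stood at -0.16 each, the former with 256, 258 and 266 against 227, 244 and 222 and the latter with 39.0, 37.6 and 36.0 against 33.2, 31.3 and 31.2. In these 4 genes every TsA array was below every vehicle array. The 3 genes with all TsA arrays above all vehicle arrays were Napb, with 1611, 1439 and 1520 against 1722, 1778 and 1711 (0.19), Syt9, with 19.8, 16.5 and 17.5 against 20.1, 28.1 and 20.2 (0.19), and Snap25, with 3649, 3680 and 3543 against 3727, 3807 and 4055 (0.09). Markers of other cells moved beside these genes in the cortex. Of 8 microglia markers 6 lay below 0, and Aif1 (-0.20), C1qa (-0.33) and C1qb (-0.35) were lower with TsA without overlap. The other 2 lay above 0, P2ry12 at 0.29 and Cx3cr1 at 0.01. The summed signal over the list was 1123 to 1231 with vehicle and 928 to 1127 with TsA, ranges that overlap slightly. All 4 endothelium markers lay below 0, Cldn5 (-0.18) without overlap, with a summed signal of 616 to 650.2 against 542 to 586. None of these markers passed the threshold, and their part in the Vamp8 and Vamp5 values was not tested. None of the 7 release genes passed either. The 3 higher and 4 lower genes compare with 3.89% and 8.47% of all probe sets. Wash batch 1 held the cortex vehicle arrays and only 1 cortex TsA array. Within it the values were Vamp8 -0.32, Vamp5 -0.39, Vamp3 -0.18, Rab3c -0.12, Napb 0.18, Syt9 0.09 and Snap25 0.04. The 7 genes were picked because these groups of arrays do not overlap, so the signs were fixed in advance. They are no independent support. Treatment and wash batch otherwise cannot be told apart for these arrays.

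The largest TsA values were those of the brightest Sv2b probe set, 1.08 ± 0.56 in the cortex and 0.76 in the accumbens (unadjusted p = 0.0751 and 0.198). They depend on TsA array 2, in the cortex only in part: without it they were 0.51 ± 0.53 in the cortex and 0.12 ± 0.51 in the accumbens. Cortex TsA array 3 (522) also stood above the cortex vehicle arrays (201 to 439), while cortex TsA array 1 (275) lay among them. The second Sv2b probe set gave 0.03 and -0.08. Within wash batch 1 the cortex value was 0.06, and within wash batch 3 the accumbens value was 0.95. Of the cortex TsA arrays batch 1 held only array 1. Batch 3 held accumbens TsA array 2 but only 1 accumbens vehicle array. The genes with an unadjusted p under 0.05 were Vamp8 and Stxbp3 (0.29) in the cortex and Syt6 (0.24) in the accumbens. For the difference between structures they were Rab3b (0.42 ± 0.18), Vamp5 (0.51 ± 0.21) and Vamp8 (0.36 ± 0.15), each with an adjusted p of 0.840. For the average they were Napb (0.15), Sv2b (0.92) and Vamp8 (-0.16).

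**Figure D5:**
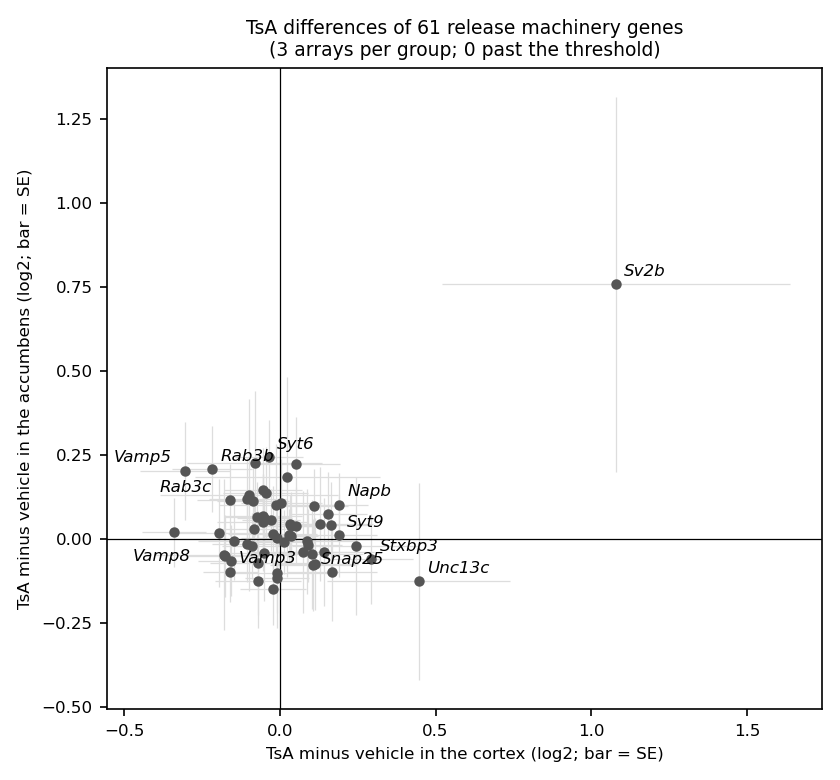
TsA minus vehicle (log2; bars are SE) in the accumbens against that in the cingulate cortex for the 61 release machinery genes, 3 arrays per group. None passed the threshold; Sv2b stands apart (1.08 in the cortex and 0.76 in the accumbens), followed on the cortex axis by Unc13c (0.45) and on the accumbens axis by Syt6 (0.24).

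The spread between replicate arrays bounds what could be seen. The median SD of log2 signal within a group was 0.147 for the release genes in cortex vehicle (0.147 over all probe sets), 0.0947 in cortex TsA (0.111), 0.175 in accumbens vehicle (0.180) and 0.115 in accumbens TsA (0.114). The release genes thus varied about as much as other genes. The least steady were Sv2b in 3 groups (0.614, 1.09 and 1.13) and Syt17 in accumbens vehicle (0.755).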

How the data were processed

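The data are 12 arrays of the Affymetrix Rat Genome 230 2.0 type, 3 for each structure and treatment, each with RNA of 2 pooled rats. The deposited values are linear intensity values (signal) per probe set, read with GCOS 1.4 and summarised by MAS5, per the submitters' processing notes. The 2% trimmed mean was 100.03 on each array, so the authors had scaled them already, and no further normalization was applied. The run records served only to find arrays washed together. Detection calls were not used here.

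Of 31099 probe sets, 57 controls were left out. Gene names came from GEO's platform annotation: 20826 probe sets had 1 symbol, 436 several and 9780 none, and 0 symbols needed updating. The lowest 40% by mean signal (under 17.4) were left out, which kept 18625. One limma model (limma 3.58.1, R 4.3.3) with a mean per group was fitted to log2(signal + 16) of all 12 arrays (8 residual degrees of freedom, eBayes with trend). Two-sided p-values were adjusted by Benjamini-Hochberg across all 18625 probe sets, at a threshold of 0.05. The model was tested on simulated data. The number of arrays limits the precision.

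The members, the lists of core, trafficking and other release genes and the markers were chosen with earlier results of these data known. Signals of every array are given for the 8 highest and 8 lowest genes among those past the threshold (as the lowest, median and highest of 6 arrays for some) and for up to 4 genes on each side whose treatment groups did not overlap. Where another probe set gave the other sign, or a size under 0.5 or over 2 times, its value is given. Alternatives were the added constant, the dim filter, quantile or median scaling, wash batch or replicate number as a block, the eBayes settings, the treatments or wash batches apart, other probe sets, and each array left out.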

Additional observations from a re-analysis of the deposited data

How the results depend on the processing

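For the comparison of structures, 14 genes were higher and 28 lower. With wash batch as a block these counts were 6 and 17 and the median over the 61 genes was -0.27 (from -0.17). Within wash batch 2 there were 7 higher and 19 lower, and with the vehicle arrays alone 8 and 21. With each array left out in turn, 12 to 14 were higher and 26 to 28 lower, and the median lay between -0.19 and -0.12. Under the other alternatives 10 to 16 were higher and 23 to 40 lower, where 16 and 40 count every probe set of the genes. Sv2b turned from 0.15 to -0.92 when its probe sets were averaged. The TsA counts were 0 in each alternative run, the replicate block included. Arrays of the same treatment and replicate number in both structures correlated at 0.031 to 0.66 in their deviations from the group means. The 0.66 was that of vehicle arrays 1, and the next was 0.16 (TsA arrays 3). Arrays of unlike number also reached such values. Cortex vehicle array 2 gave 0.60 with accumbens vehicle array 3 and -0.67 with accumbens vehicle array 1. Across treatments, cortex TsA array 2 gave 0.48 with accumbens vehicle array 3. All 6 same-numbered pairs were above 0 but not all reached the level set for pairing. Whether these pools share animals is therefore not known. The replicate block gave 14 higher and 27 lower for the structures, and the same within each treatment. Structure largely coincides with wash batch, since batch 1 held only cortex arrays and batch 3 only accumbens arrays. In the fit with the block, batch 1 is linked to batch 2 only through cortex TsA array 1. Batch 3 is linked to batch 2 only through accumbens vehicle array 3. A call lost or a value shifted with the block therefore does not tell what the batch contributed. Within each structure treatment also largely coincides with wash batch, and 3 pools per group limit what could be seen. Detection above background cannot be judged from the signal alone, which bears most on genes near the dim limit.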

Other observations

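The release genes as a group drifted on single arrays. Their median deviation from the group mean, on the log2 scale, ranged from -0.063 on accumbens vehicle array 1 to 0.052 on cortex vehicle array 2. Over all probe sets these arrays stood at -0.033 and 0.011. On 4 arrays the release genes and all probe sets deviated in opposite directions, among them cortex TsA array 1 (-0.040 against 0.0013) and accumbens TsA array 3 (0.029 against -0.0046).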
